A study of Arabidopsis thaliana with 18 samples.

Results

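The 10 genes described here are core members of the plant circadian clock, taken by their locus identifiers from the 37686 gene rows of each library: CCA1 (AT2G46830), LHY (AT1G01060), PRR9 (AT2G46790), PRR7 (AT5G02810), PRR5 (AT5G24470), PRR3 (AT5G60100), TOC1 (AT5G61380), GI (AT1G22770), ELF4 (AT2G40080) and LUX (AT3G46640). All 10 were found in all 18 libraries, and all 10 were among the 20952 genes that passed the filter on low counts. The libraries are polyA RNA from rosette leaves (the first pair) of wild-type Arabidopsis thaliana, accession Columbia, at 9, 12 and 15 days of age. Leaves were taken either directly on detachment (before culture) or after 1 day on B5 medium lacking sucrose (cultured), which gave 6 groups of 3 libraries. Seedlings had grown on half-strength MS medium with sucrose, and seedlings and explants alike were kept at 22°C in continuous light, so every group shares the absence of a light-dark cycle. The labels give no clock hour of collection.

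The plant clock is a ring of genes that repress one another in turn over the day. CCA1 and LHY, a pair of MYB-related transcription factors, peak around dawn and repress the evening genes. The pseudo-response regulators PRR9, PRR7, PRR5 and TOC1 follow in that order from morning to evening and repress CCA1 and LHY. ELF4 and LUX act with ELF3 in the evening complex, which represses PRR9, PRR7, GI and LUX itself. GI is a large protein that stabilises the photoreceptor and F-box protein ZTL and links the clock to flowering, and PRR3 is known to protect TOC1 from degradation. In continuous light the rhythm goes on without an external cue, with a period set by the plant. CCA1, LHY, PRR9 and PRR7 are called morning genes below, PRR5 and PRR3 afternoon genes, and TOC1, GI, ELF4 and LUX evening genes, after their textbook peak times.

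Promoter stretches are shown for 3 motifs, which do not split the 10 genes cleanly by part of the day. The 1000 bases upstream of each annotated gene start were searched on both strands for the evening element AAAATATCT, the CCA1-binding site AAAAATCT and the G-box CACGTG in the RefSeq TAIR10.1 genome. No 2 of these motifs contain one another. The evening element was in the windows of 5 of the 10 genes, namely PRR5, TOC1, GI, ELF4 and LUX, against 7.24% of all 27443 protein-coding windows. The G-box was in 5 windows, those of CCA1, LHY, PRR9, PRR7 and LUX, against 14.8% of all windows. The CCA1-binding site was in 3 windows, those of LHY, PRR9 and PRR5, against 21.1% of all windows. In the PRR3 window none of the 3 motifs was found. Each stretch below reads 5′ to 3′ on the strand of its gene, the capitals mark the motif in either orientation, and none overlaps another annotated gene.
CCA1 G-box, chr2:19245373-19245428, plus strand: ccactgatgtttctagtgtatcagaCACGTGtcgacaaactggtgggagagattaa
LHY G-box, chr1:37921-37976, minus strand: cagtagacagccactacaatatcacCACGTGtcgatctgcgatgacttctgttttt
PRR9 G-box, chr2:19232338-19232393, plus strand: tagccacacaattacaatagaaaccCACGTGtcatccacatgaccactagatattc
PRR7 G-box, chr5:642201-642256, minus strand: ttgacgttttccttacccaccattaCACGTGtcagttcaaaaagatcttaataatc
PRR5 evening element, chr5:8358805-8358863, minus strand: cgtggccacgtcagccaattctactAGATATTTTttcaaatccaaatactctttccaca
TOC1 evening element, chr5:24674787-24674845, plus strand: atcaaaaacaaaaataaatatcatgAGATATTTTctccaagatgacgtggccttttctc
GI evening elements, chr1:8060917-8061007, plus strand: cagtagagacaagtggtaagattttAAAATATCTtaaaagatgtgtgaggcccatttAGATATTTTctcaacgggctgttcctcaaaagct
ELF4 evening element, chr2:16735456-16735514, minus strand: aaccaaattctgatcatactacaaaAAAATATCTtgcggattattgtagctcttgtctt
LUX evening element, chr3:17182964-17183022, plus strand: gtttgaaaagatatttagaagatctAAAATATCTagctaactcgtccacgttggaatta
PRR5 and GI each held 3 evening elements and PRR9 held 2 G-boxes. Not every match is printed: the G-box of LUX and the CCA1-binding sites of LHY, PRR9 and PRR5 are among those left out. The nearest evening element to a gene start was that of LUX, 53 bases upstream. A match is a description of the letters and was not tested as a binding site.

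Library totals ran from 29664089 to 51126114 expected counts, and libraries of a group correlated at 0.906 to 0.986 across genes. The leaf genes RBCS1A and RCA were at 10332 to 47785 and 2553 to 16859 TPM, while the root marker CASP1 stayed at or below 0.930 TPM and the meristem gene WUS was at 0 in all 18 libraries. Replicate 2 before culture at 12 and at 15 days stood apart from its group, with sugar-starvation genes (ASN1, SEN1 and DIN10) at a median of 2.83 and 3.15 log2 units above the group mean, the highest of the 18 libraries. Replicate 1 before culture at 9 days followed at 2.34, and the lowest was replicate 1 before culture at 12 days at -2.61. In touch genes both libraries were above their group mean, by 1.64 and 1.5, but others lay further off, replicate 1 before culture at 12 days at -3.35 and replicate 3 before culture at 15 days at -2.08. The 2 libraries were left out in an alternative chosen with earlier results of these data known, and every library was also left out singly. The 6 replicate 3 libraries carry other tags in their labels than replicates 1 and 2 and are treated as a possible batch, so values from replicates 1 and 2 alone stand beside the pooled ones. The labels do not say whether replicates came from separate plantings, and the p-values measure the spread between these libraries.

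Per unit length, ELF4 was the most abundant of the 10 transcripts, with a median of 59.6 TPM over the 18 libraries. It was followed by LHY at 44.5 TPM, CCA1 at 34.6, LUX at 25.3 and TOC1 at 19.6. PRR7 had a median of 16.8 TPM, PRR3 13.6 and PRR5 10.9, and GI and PRR9 closed the order at 4.12 and 4.04 TPM. The ranges of neighbours in this order overlapped throughout: CCA1 alone ran from 6.52 to 154 TPM and ELF4 from 22.1 to 116 TPM. The top transcript changed with the library. It was ELF4 in 10 libraries, LHY in 4, CCA1 in 3 and LUX in 1, replicate 2 before culture at 15 days. PRR9 or GI was the lowest of the 10 in each of the 18.

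CCA1, one of the dawn MYB factors, differed 1.62- to 8.18-fold between the highest and the lowest library of a group. Before culture it stood at 58.5, 80.3 and 9.82 CPM (counts scaled to library size) in replicates 1, 2 and 3 at 9 days, at 142, 119.9 and 38.7 CPM at 12 days and at 99.5, 62.6 and 239.6 CPM at 15 days. After culture it stood at 72.9, 43.9 and 19.8 CPM at 9 days, at 59.2, 60.4 and 37.4 CPM at 12 days and at 35.1, 49.2 and 70.3 CPM at 15 days. Replicate 3 was the lowest of its group at 9 and 12 days, before and after culture, and the highest of its group at 15 days, before and after culture. The widest ratio was that of the 9-day leaves before culture.

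LHY, the partner of CCA1, followed the same libraries except in cultured 12-day leaves, where replicate 1 and not replicate 3 was the lowest. Before culture it was at 92.2, 92.6 and 18.4 CPM at 9 days, at 202, 113 and 82.6 CPM at 12 days and at 107, 64.4 and 289 CPM at 15 days. After culture it was at 119.7, 82.2 and 45.6 CPM, then 87.5, 93.6 and 93.1 CPM, then 57.6, 67.7 and 127 CPM at the 3 ages. The cultured 12-day libraries lay within 1.07-fold of each other, the narrowest LHY group.

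PRR9, the first of the pseudo-response regulators to rise after dawn, had its lowest group mean in the youngest leaves before culture. It was at 0.661, 2.47 and 0.330 CPM at 9 days before culture, where its lowest library held 18 expected counts, at 7.14, 4.10 and 1.93 CPM at 12 days and at 12.5, 4.44 and 15.5 CPM at 15 days. In cultured leaves it was at 8.50, 5.85 and 1.94 CPM at 9 days, at 14.2, 8.29 and 3.63 CPM at 12 days and at 8.66, 10.03 and 16.6 CPM at 15 days. Replicate 3 was again the lowest in the 9- and 12-day groups and the highest in the 15-day groups.

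PRR7, which follows PRR9, rose with age before culture. Its values were 21.5, 26.1 and 19.0 CPM at 9 days, 34.7, 72.5 and 34.0 CPM at 12 days and 62.1, 101 and 88.5 CPM at 15 days. All 3 of the oldest group lay above all 3 of the youngest, a separation that was not counted over all tested genes. In cultured leaves the values were 45.4, 53.6 and 19.7 CPM, then 54.6, 37.6 and 19.2 CPM, then 34.6, 53.6 and 58.7 CPM, and the age groups overlapped.

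Of the afternoon genes, PRR5 was at 9.13, 9.89 and 12.1 CPM at 9 days before culture, at 7.41, 12.5 and 32.8 CPM at 12 days and at 29.8, 37.1 and 18.9 CPM at 15 days. In cultured leaves PRR5 lay between 7.77 CPM, in replicate 2 at 12 days, and 25.3 CPM, in replicate 2 at 9 days. PRR3 ran from 7.52 CPM, in replicate 2 before culture at 12 days, to 68.5 CPM, in replicate 3 before culture at 9 days. The PRR3 low point is one of the libraries that stood apart.

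TOC1, the evening member of the pseudo-response regulator family, moved against CCA1 between replicates of a group (correlation of levels over all 18 libraries -0.32). Before culture it was at 56.0, 45.9 and 94.6 CPM at 9 days, at 34.5, 45.8 and 81.2 CPM at 12 days and at 79.8, 114 and 51.3 CPM at 15 days. After culture it was at 34.9, 36.9 and 60.9 CPM, then 37.8, 28.5 and 45.6 CPM, then 41.7, 35.5 and 35.6 CPM. Replicate 3 was the highest of its group at 9 and 12 days and the lowest before culture at 15 days, the reverse of CCA1.

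LUX, the DNA-binding subunit of the evening complex, had the narrowest spread of the 10 over all 3 replicates. Before culture it was at 43.6, 38.4 and 51.7 CPM at 9 days, at 54.7, 66.7 and 63.9 CPM at 12 days and at 72.7, 163 and 57.8 CPM at 15 days. In cultured leaves it was at 42.8, 46.2 and 37.4 CPM, then 40.9, 25.3 and 27.8 CPM, then 37.4, 30.9 and 25.6 CPM. The one library far above the rest, at 163 CPM, is replicate 2 at 15 days, which stood apart in its starvation genes. LUX overlaps AT3G46650 on the opposite strand, a gene with at most 19.3 expected counts, and at most 1.25% of the LUX count, in any library.

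ELF4, the small partner of LUX and ELF3, ran from 11.0 CPM in replicate 2 before culture at 12 days to 47.9 CPM in replicate 2 of the cultured 9-day leaves. GI was at 5.57, 7.23 and 10.02 CPM at 9 days before culture, at 6.35, 7.24 and 14.8 CPM at 12 days and at 22.1, 18.3 and 15.3 CPM at 15 days. After culture GI was at 16.0, 21.1 and 10.1 CPM, then 22.1, 11.2 and 10.1 CPM, then 20.1, 18.9 and 18.6 CPM. Before culture, every 15-day library lay above every 9- and 12-day library for GI, and the 9- and 12-day groups overlapped. The margin over the 12-day leaves was narrow, at 15.3 against 14.8 CPM. Such a separation was not counted over all tested genes.

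**Figure D1:**
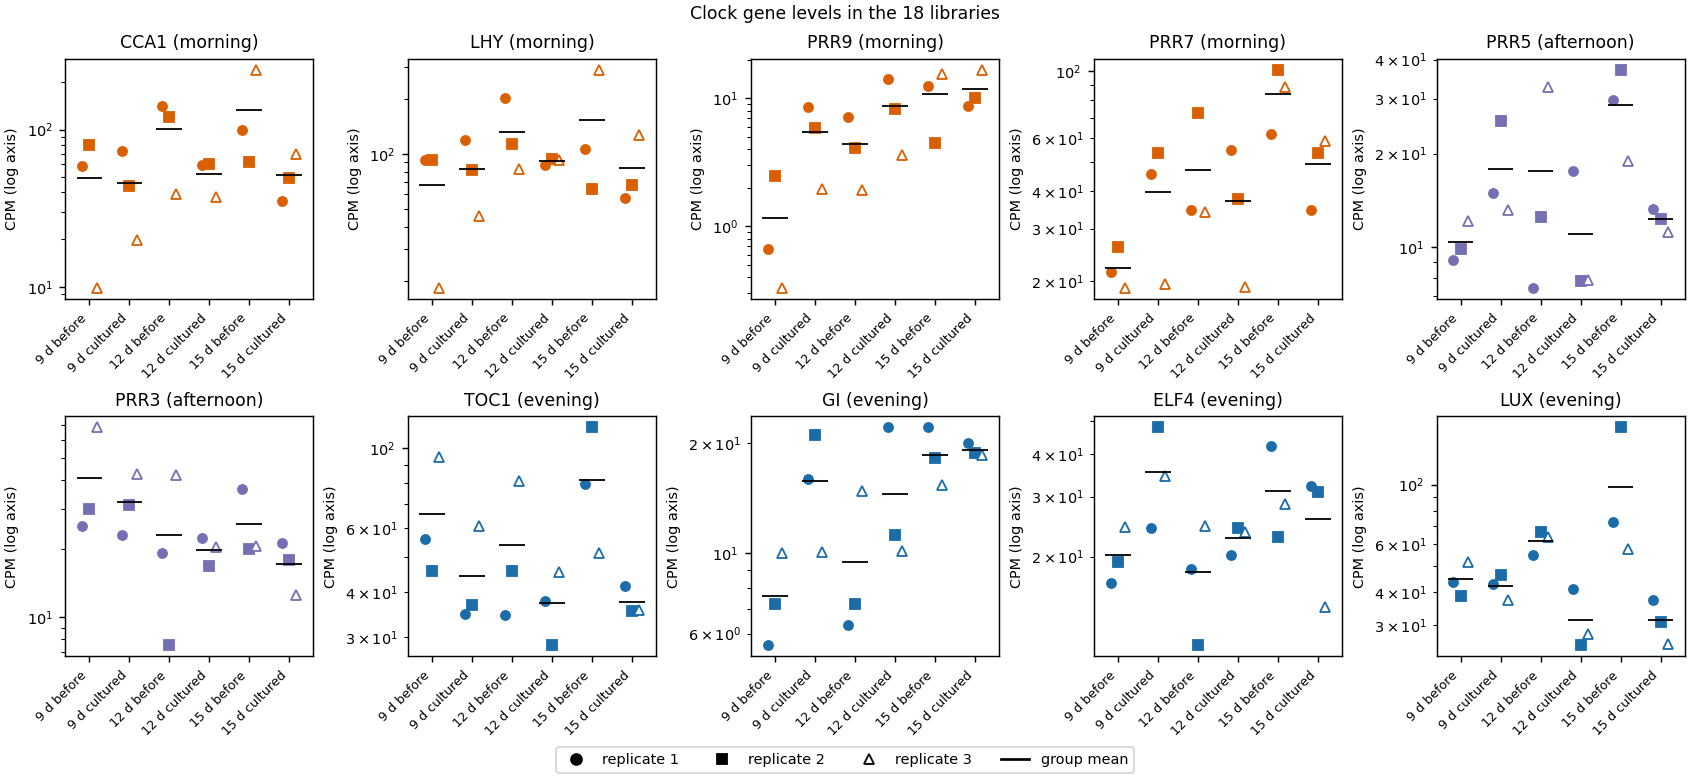
CPM (log axis, a separate scale in each panel) of the 10 clock genes in the 18 libraries, by age and culture. Circles, squares and open triangles are replicates 1, 2 and 3 and the bar is the group mean; the open triangle of CCA1 is the lowest point of each 9- and 12-day group and the highest of each 15-day group, and that of TOC1 is the highest in the 9- and 12-day groups.

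Morning and evening genes were set against each other in each library as the difference between the mean log2 CPM of CCA1, LHY, PRR9 and PRR7 and that of TOC1, GI, ELF4 and LUX. Before culture this difference was -0.37, 0.24 and -2.45 at 9 days, 1.25, 1.01 and -0.78 at 12 days and 0.15, -0.52 and 1.55 at 15 days, in replicates 1, 2 and 3. After culture it was 0.64, -0.15 and -1.12 at 9 days, 0.63, 0.79 and -0.08 at 12 days and -0.18, 0.37 and 1.29 at 15 days. Replicate 3 thus leaned furthest to the evening genes in all 4 groups of 9- and 12-day leaves and furthest to the morning genes in both groups of 15-day leaves. The group means were -0.86 ± 1.41 and -0.21 ± 0.88 at 9 days before and after culture, 0.49 ± 1.11 and 0.45 ± 0.46 at 12 days, and 0.39 ± 1.05 and 0.49 ± 0.74 at 15 days (SD, n = 3 each). The means thus lay between -0.86 and 0.49, while the libraries of a single group spanned 0.87 to 2.70 log2 units.

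**Figure D2:**
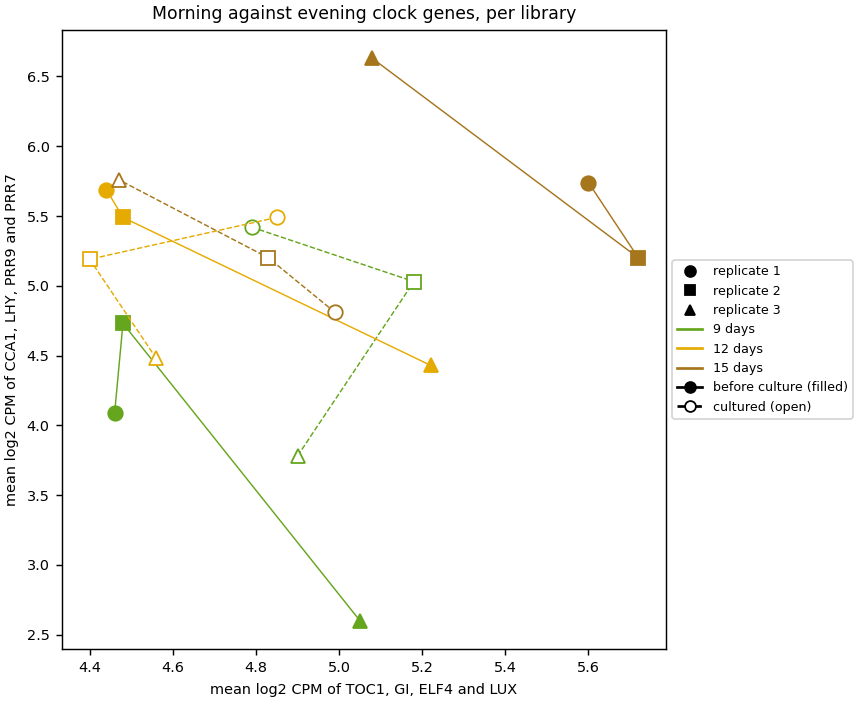
Mean log2 CPM of the 4 morning genes against that of the 4 evening genes, 1 point per library, with lines joining the replicates of a group. Triangles (replicate 3) lie at the bottom of the 9- and 12-day groups and at the top of the 15-day groups, down to a difference of -2.45 before culture at 9 days and up to 1.55 before culture at 15 days.

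The same ordering of replicates was seen in clock genes outside the 10. Of 14 other morning genes (RVE8, RVE4, RVE6, RVE1, RVE2, RVE7, LNK1 to LNK4, CDF1, COL1, COL2 and CAT2), replicate 3 was the lowest library for 12 at 9 days and 12 at 12 days before culture, and for 10 and 9 in cultured leaves of those ages. It was the highest for 10 before culture and 8 after culture at 15 days. Of 8 other evening genes (BOA, ELF3, FKF1, COR27, COR28, GRP7, GRP8 and CAT3), replicate 3 was the highest for 7 at 9 days and 6 at 12 days before culture and the lowest for 6 at 15 days before culture. In cultured leaves it was the highest for 2 of the 8 at 9 days and for 2 at 12 days, so the evening side of the ordering was weaker there. Over all tested genes replicate 3 was the lowest for 31.4% to 40.0% and the highest for 32.7% to 41.3% in the 6 groups. Whether collection hour or the batch of the replicate 3 libraries has a part in this ordering was not tested.

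The replicate spread of a gene was taken as the SD of log2 CPM around the group means, pooled over the 6 groups. The morning genes PRR9, at 1.01, CCA1, at 1.00, and LHY, at 0.85 log2 units, had the widest spread of the 10. The afternoon genes PRR3 and PRR5 were at 0.68 and 0.60, above the morning gene PRR7 at 0.57, and the evening genes TOC1, GI and ELF4 were each at 0.47 and LUX at 0.39. The median over all tested genes was 0.37, and the spread of CCA1 was at least that of 93.5% of them, that of PRR9 93.7%, that of LHY 89.7% and that of LUX 53.8%. Among genes of like level the shares were 95.8% for CCA1 and 69.1% for LUX.

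The contrast between morning and evening genes rested on replicate 3. In replicates 1 and 2 alone the spread of CCA1 was 0.35 and that of LHY 0.36 log2 units, against a median of 0.33 over all tested genes, which placed them at 53.1% and 55.0%. PRR9 kept 0.77 log2 units there, at 86.3%, and TOC1 had 0.25, at 35.3%. The medians of the 4 morning and the 4 evening genes came to 0.92 and 0.47 with all replicates and to 0.41 and 0.38 in replicates 1 and 2. Without the 2 libraries that stood apart the spread of LUX was 0.25, that of PRR3 0.54 and that of CCA1 1.02. Among the other clock genes the median spread was 0.70 for the 14 morning genes, 0.53 for the 8 evening genes and 0.29 for 14 genes of light input and clock-associated factors.

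**Figure D3:**
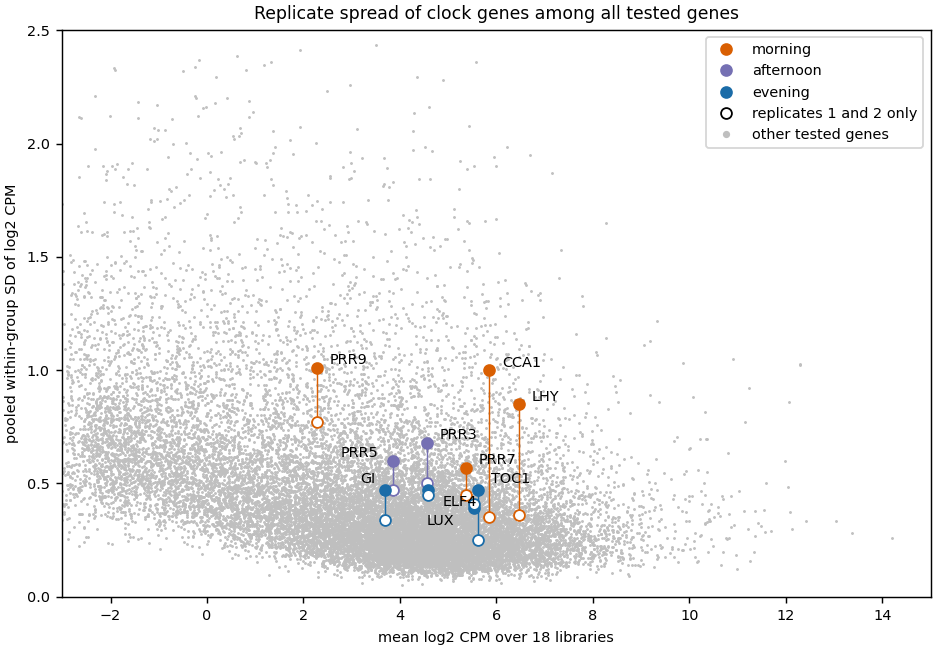
Pooled within-group SD of log2 CPM against mean log2 CPM, with tested genes in grey (those with an SD above 2.5 or a level outside the axis are not drawn) and the 10 clock genes in colour. Filled points use all 3 replicates and open points replicates 1 and 2: CCA1 moves from 1.00 to 0.35 and LHY from 0.85 to 0.36, into the body of the grey cloud.

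Within groups, CCA1, LHY and PRR9 deviated together and against TOC1. Each group of 3 libraries gives 3 pairs of replicates, 18 in all, which are not independent of one another. CCA1 and LHY changed in the same direction in 17 of the 18 pairs, with a correlation of their deviations from the group means of 0.94. CCA1 and PRR9 did so in 17 pairs and LHY and PRR9 in 16. CCA1 and TOC1 changed in opposite directions in 17 of 18 pairs, with a correlation of -0.93, and TOC1 opposed LHY in 16 and PRR9 in 16. Of the 18 pairs 6 hold no replicate 3 library. In those 6, a split added after the pooled values were seen, CCA1 went with LHY in 6 (0.78) and with PRR9 in 5 (0.77), and TOC1 opposed CCA1 in 6 (-0.72), LHY in 6 (-0.79) and PRR9 in 5 (-0.60). For comparison, the median tested gene shared its direction with CCA1 in 9 of 18 pairs, 0.110% of tested genes followed CCA1 in as many pairs as LHY, and 0.0668% opposed it in as many as TOC1.

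The remaining genes did not form a single evening block. PRR5 went with GI in 16 of 18 pairs (correlation of deviations 0.89) and with LUX in 16 (0.58). PRR3 went with ELF4 in 14 (0.77), and ELF4 and LUX shared a direction in 9 pairs, with a correlation of -0.07. PRR7, a morning gene, went with CCA1 in 13 pairs (0.48), fewer than PRR9. In the 6 pairs of replicates 1 and 2 it did so in 2 (-0.26), while PRR5 went with GI in 5 (0.82) and with LUX in 5 (0.64), PRR3 with ELF4 in 5 (0.80), and ELF4 with LUX in 2 (-0.61). These correlations are over 18 libraries that fall into shared groups and possible batches, and are descriptions.

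**Figure D4:**
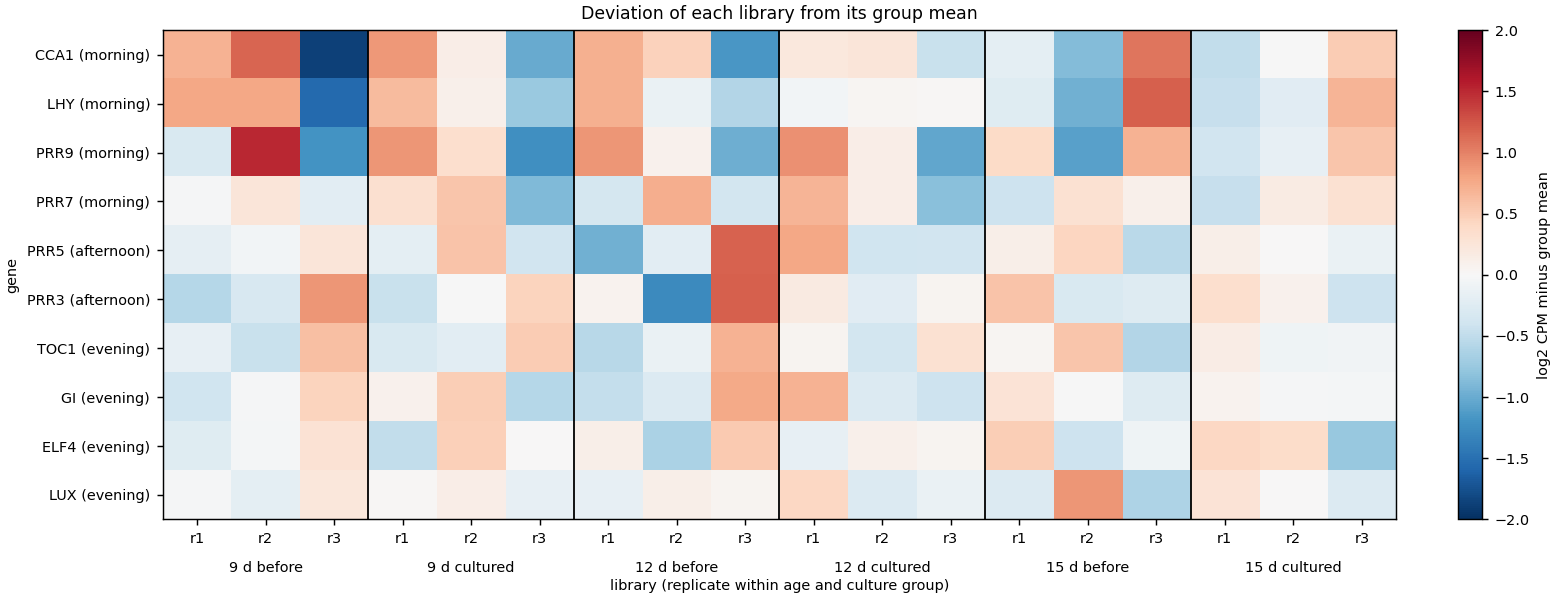
Log2 CPM of each clock gene minus its group mean in the 18 libraries, in blocks of 3 replicates (r1 to r3) per group, with colours clipped at 2 log2 units either way. The rows of CCA1, LHY and PRR9 run against that of TOC1, most widely in replicate 3 before culture at 9 days, where CCA1 deviated most, by 1.86 log2 units.

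By the correlation of log2 CPM over the 18 libraries, the tested genes most like CCA1 with a mean of at least 5 CPM were AT3G12320 and AT3G54500, known as LNK3 and LNK2, RVE8, STO and BBX16, at 0.90 to 0.92. The closest to PRR9 were AT5G67140, UP6, SERAT2;1, AT2G41870 and DUR3, at 0.89 to 0.91. For TOC1 they were HON4, AT1G15940, AT1G21670, BOA and AT2G17530, at 0.84 to 0.85, and for GI AT1G80245, AT3G15590, AT5G17270, AT5G64680 and MSS1, at 0.78 to 0.80. Within groups MSS1 and GI were correlated at 0.22 only, while LNK3 and CCA1 were at 0.95.

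In leaves before culture, some of the 10 clock genes were higher at 15 than at 9 days. Between 9 and 15 days, PRR9, PRR7, PRR5, GI and LUX rose, 5 of the 10 genes, where 45.2% of all tested genes were called in either direction and 23.2% were higher (edgeR's quasi-likelihood test, Benjamini-Hochberg adjusted p under 0.05 over 20952 genes). PRR9 rose by 3.27 ± 0.80 log2 units (SE, adjusted p = 0.00422), the widest change of the 10. PRR7 rose by 1.92 ± 0.43 (adjusted p = 0.00228), PRR5 by 1.46 ± 0.47 (adjusted p = 0.0191), GI by 1.28 ± 0.37 (adjusted p = 0.0113) and LUX by 1.13 ± 0.31 (adjusted p = 0.00851). For each of these 5 genes the oldest libraries all lay above the youngest. The share of all tested genes that separate in this way was not counted. PRR3, the other afternoon gene, differed by -0.68, TOC1 by 0.32 and ELF4 by 0.63 log2 units, none of them called. In bulk leaf RNA a change in level per cell and a change in the share of cells that hold the transcript cannot be told apart. The labels give no clock hour, so a difference with age and one in the hour of collection cannot be told apart either.

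CCA1 and LHY differed by 1.44 and 1.18 log2 units between the same groups without passing the test, and their replicates overlapped. In replicates 1 and 2 alone their differences were 0.21 and -0.13. Those replicates gave 2.44 for PRR9, 1.76 for PRR7, 1.80 for PRR5, 1.64 for GI and 1.49 for LUX, each called, and TOC1 was called as well, at 0.90 (adjusted p = 0.0232), against 0.32 with all replicates. With the 2 libraries that stood apart left out, LUX came to 0.55 (adjusted p = 0.0570) and PRR5 to 1.23 (adjusted p = 0.0594), and neither was called. PRR7 was called in each of the 9 fits that left out a library or a replicate number, at 1.76 to 2.10. LUX lost its call without replicate 2 before culture at 15 days, and came to 0.45 without replicate 2 of every group. PRR5 lost its call without replicate 1 or 2 at 9 days or replicate 2 at 15 days, and GI without replicate 1 at 9 days. Both also lost it without replicate 1 or replicate 2 of every group, and PRR9 only where replicate 1 of every group was left out (adjusted p = 0.0626).

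None of the 10 passed the edgeR test between 9 and 12 days before culture, where 7.44% of all tested genes were called, nor between 12 and 15 days, where 14.5% were. At an unadjusted p under 0.05 there were 2 and 3 of the 10, PRR9 and PRR7 in the first step and GI, ELF4 and LUX in the second. The share of all tested genes at that threshold was not taken, so these counts have nothing to be set against. DESeq2 called 0 in both steps, though in the first it called 2779 of all tested genes, against 1559 by edgeR. Without replicate 3, GI and TOC1 were called between 12 and 15 days, at 1.56 and 1.26 log2 units. Leaving out only replicate 3 of the 12-day leaves before culture called GI and PRR5, and leaving out only that of the 15-day leaves called LUX.

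Culture for 1 day was compared with the leaves before culture at each age. Here too, with no clock hour in the labels, a difference with culture and one in the hour of collection cannot be told apart. At 9 days none of the 10 passed the edgeR test, where 9.54% of all tested genes were called. An unadjusted p under 0.05 was seen for 3: PRR9 at 2.27 ± 0.78 log2 units, GI at 1.04 ± 0.37 and ELF4 at 0.82 ± 0.35, all with higher values after culture. The share of all tested genes at that unadjusted threshold was not taken. DESeq2 called 2 of these 3 genes, PRR9 at 2.24 (adjusted p = 0.0183) and GI at 1.04 (adjusted p = 0.0466). The share of 9.54% is that of edgeR with all replicates, and the share called by DESeq2 is not set beside these calls. In replicates 1 and 2 alone GI was called by edgeR, at 1.5 (adjusted p = 0.0428).

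At 12 days LUX fell by 0.98 ± 0.31 log2 units (adjusted p = 0.0371), the only one of the 10 called, where 19.7% of all tested genes were called and 9.33% were lower. All 3 cultured libraries lay below all 3 libraries before culture, a separation that was not counted over all tested genes. In replicates 1 and 2 the difference was -0.87 (adjusted p = 0.165), and the call was also lost without replicate 2 or replicate 3 of either group and without replicate 1 or replicate 2 of every group, with an adjusted p of at most 0.165 and values from -1.3 to -0.78. GI, at 0.61 with all replicates, was called in replicates 1 and 2, at 1.3 (adjusted p = 0.0410).

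At 15 days 3 of the 10 fell, LUX, TOC1 and PRR5, where 41.9% of all tested genes were called and 20.8% were lower. LUX fell by 1.64 ± 0.31 log2 units (adjusted p = 0.000874), to 0.320 of its level before culture. TOC1 fell by 1.12 ± 0.37 (adjusted p = 0.0234) and PRR5 by 1.22 ± 0.46 (adjusted p = 0.0451), and the groups of all 3 genes did not overlap. The share of all tested genes without overlap was not counted. Replicates 1 and 2 gave -1.75 for LUX, -1.29 for TOC1 and -1.35 for PRR5, each called. Leaving out the 2 libraries that stood apart, TOC1 came to -0.82 (adjusted p = 0.0967) and PRR5 to -1.01 (adjusted p = 0.115), so that LUX alone of the 10 was called. LUX kept its call in each of the 9 fits that left out a library or a replicate number, at -1.95 to -1.05. TOC1 lost it without replicate 2 before culture or replicate 2 or 3 after culture, and PRR5 without replicate 1 or 2 before culture or any cultured replicate. Both also lost it without replicate 1 or replicate 2 of every group. CCA1, at -1.38 ± 0.69, had a larger difference than TOC1 but did not pass the test (adjusted p = 0.123).

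Over the mean of the 3 ages 4 of the 10 were called, where 44.6% of all tested genes were, 22.5% higher and 22.1% lower. LUX fell by 0.90 ± 0.18 log2 units (adjusted p = 0.000841), TOC1 fell by 0.74 ± 0.21 (adjusted p = 0.0100), PRR9 rose by 1.13 ± 0.43 (adjusted p = 0.0416) and GI rose by 0.57 ± 0.21 (adjusted p = 0.0403). Of the 4 evening genes TOC1 and LUX were thus lower on this mean, GI was higher and ELF4 was at 0.29 with no call. At 9, 12 and 15 days GI was at 1.04, 0.61 and 0.05 and LUX at -0.08, -0.98 and -1.64. With all replicates GI passed the edgeR test at no single age. In replicates 1 and 2 the values were -0.85 for LUX, -0.70 for TOC1, 1.12 for PRR9 and 0.92 for GI, each called, together with CCA1 at -0.77 (adjusted p = 0.0137). PRR9, at 0.99, and GI, at 0.50, were, without the 2 libraries that stood apart, no longer called. PRR9, at 0.94 to 1.54, and GI, at 0.32 to 0.92, each lost the call in 14 of the 21 fits that left out a library or a replicate number. LUX kept its call in all 21, between -1.12 and -0.70, and TOC1 lost it without replicate 1 of every group and without replicate 2 of every group.

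**Figure D5:**
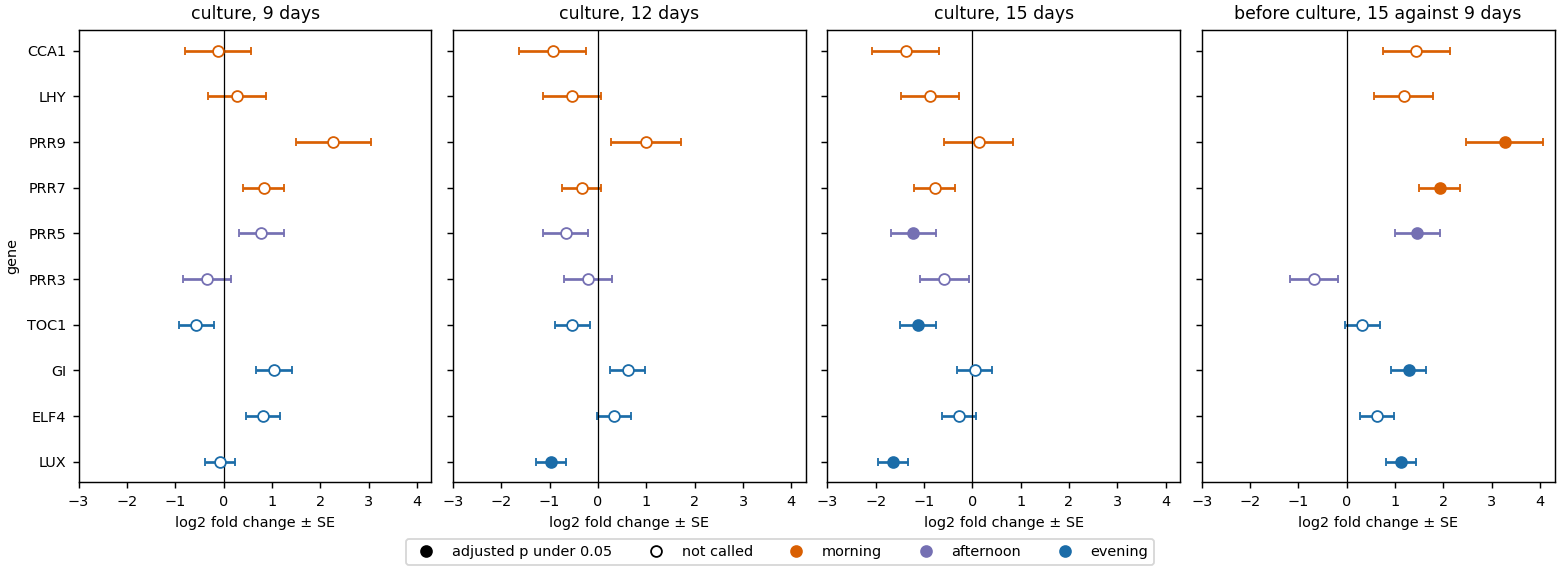
Log2 fold change ± SE (edgeR, 3 libraries a group) of the 10 clock genes for culture at 9, 12 and 15 days and for 15 against 9 days before culture; filled points have an adjusted p under 0.05. No point is filled at 9 days, LUX alone at 12 days, LUX, TOC1 and PRR5 at 15 days, and PRR9, PRR7, PRR5, GI and LUX for age.

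The change with culture was itself compared between ages. Between 15 and 9 days it differed for PRR5, by -1.99 ± 0.65 log2 units (adjusted p = 0.0416), and for LUX, by -1.56 ± 0.44 (adjusted p = 0.0212), 2 of the 10, where 20.8% of all tested genes were called and 9.77% had a lower value at 15 days. PRR5 had a difference with culture of 0.78 at 9 days and of -1.22 at 15 days, and LUX of -0.08 and -1.64. This comparison shares its libraries before culture with the age comparison in which both genes rose. In replicates 1 and 2 PRR5 was at -2.40 (adjusted p = 0.0387) and LUX at -1.82 (adjusted p = 0.0563). Without the 2 libraries that stood apart PRR5 was at -1.78 (adjusted p = 0.0684) and LUX at -0.99 (adjusted p = 0.0264). LUX also lost its call without replicate 2 before culture at 9 days, replicate 3 of the cultured 15-day leaves, or replicate 1 or replicate 2 of every group, and PRR5 lost it in 12 of the 15 fits that left out a library or a replicate number. Between 12 and 9 days 0 of the 10 passed the edgeR test and 1, PRR5, had an unadjusted p under 0.05, and between 15 and 12 days 0 passed and 0 had such a p. The share of all tested genes with an unadjusted p under 0.05 was not taken. DESeq2 also called 0 of the 10 in both, where 0.0525% and 2.78% of all tested genes were called by edgeR. For 12 against 9 days DESeq2 called 444 of all tested genes, against 11 by edgeR.

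Among cultured leaves no age difference in the 10 genes passed the edgeR test. None was called between 12 and 9 days, 15 and 12 days or 15 and 9 days, where 4.50%, 0.196% and 24.0% of all tested genes were, 0 had an unadjusted p under 0.05, and DESeq2 called 0 in each. Between 15 and 12 days DESeq2 called 767 of all tested genes, against 41 by edgeR. The cultured libraries of the 2 ages did not overlap for PRR9 (1.12) and PRR3 (-0.91) between 15 and 9 days. The same held for PRR3 (-0.70) and ELF4 (-0.65) between 12 and 9 days. How many of all tested genes separate in this way was not counted. With the 2 cultured groups alone in the fit, PRR3 was called between 15 and 9 days, at -0.93 (adjusted p = 0.0353).

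Clock genes outside the 10 were read from 3 lists. After culture at 15 days, where 41.9% of all tested genes were called and 20.8% were lower, 7 of the 14 other morning genes fell, led by COL2, a CONSTANS-like factor, at -2.83 ± 0.67, and by the CCA1 relatives RVE1 at -2.78 ± 0.52, RVE7 at -2.58 ± 0.56 and RVE4 at -2.51 ± 0.45 log2 units (edgeR, adjusted p = 0.00388, 0.000754, 0.00211 and 0.000530). Of the 8 other evening genes 4 fell: COR28 at -2.25, COR27 at -1.90, BOA, the close relative of LUX, at -1.79, and ELF3, the third subunit of the evening complex, at -0.98. Of the 14 genes of light input and clock-associated factors 8 fell and 1 rose. They included CHE, a repressor of CCA1, at -1.87, the photoreceptors PHYA at -1.62, CRY1 at -1.48 and CRY2 at -1.09, and PHYB, the one that rose, by 0.87. Without the 2 libraries that stood apart COR27 came to -0.81, CHE to -0.93 and PHYB to 0.49, none of them called. RVE1, RVE4, COL2, PHYA, CRY1 and CRY2 kept their calls in each of the 9 fits that left out a library or a replicate number, while ELF3 lost its call without replicate 3 of the cultured leaves and without replicate 1 or replicate 2 of every group. RVE7 lost its call without replicate 1 of every group, BOA without replicate 2 of every group and COR28 in both of these fits. COR27 lost it in 4 of the 9 fits, CHE in 5 and PHYB in 7. The median log2 difference was -0.82 for the 10 genes, -1.59, -0.94 and -0.93 for the 3 lists and -0.07 for all tested genes.

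At 9 days, where 9.54% of all tested genes were called, 0 of the 36 genes in the 3 lists passed the edgeR test. An unadjusted p under 0.05 was seen for 3, a threshold at which no share of all tested genes was taken, and DESeq2 called 2, RVE1 and RVE2. At 12 days, where 19.7% of all tested genes were called, 8 of the 36 were: 5 other morning genes fell, led by RVE1, RVE7, RVE2 and CAT2, BOA fell and CAT3 rose among the other evening genes, and 1 input gene, CRY1, fell. Before culture, between 9 and 15 days, where 23.2% of all tested genes were higher, 4 of the 14 other morning genes rose, LNK4 by 2.35, CAT2 by 2.13, COL1 by 2.11 and RVE4 by 1.23, as did 2 of the 8 other evening genes, COR28 by 2.13 and CAT3 by 1.35. Of the 14 input genes 7 rose, among them PHYA by 1.44, CRY1 by 1.16, LKP2, a relative of ZTL, by 0.85 and SKIP by 0.81. Without the 2 libraries that stood apart LNK4, at 1.86, and RVE4, at 0.91, were no longer called. In the 9 fits that left out a library or a replicate number, LNK4 lost its call in 6, RVE4 in 5 and PHYA in 1. COR28, CAT3 and SKIP each lost it in 3, while CAT2, COL1, CRY1 and LKP2 kept it in all.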

How the data were processed

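PolyA RNA of 18 leaf libraries was measured, 3 in each of 6 groups of age and culture, on an Illumina HiSeq instrument, per the labels. Trimmomatic, STAR 2.5.3 and RSEM 1.3.0 and the build TAIR10 are named in the submitters' processing notes. The authors deposited expected counts and TPM per gene for each library. Expected counts were rounded and fitted with edgeR 4.0.16 (R 4.3.3) by its quasi-likelihood test, with TMM factors, filterByExpr at a minimum count of 10, 1 mean per group over all 18 libraries, 13 contrasts and Benjamini-Hochberg adjustment over 20952 of 37686 genes at a threshold of 0.05. CPM uses TMM library sizes, with a prior count of 2 on the log2 scale. TPM was used to compare levels between genes. The rarest of the 10 genes, PRR9, had 18 counts in its lowest library. That library, replicate 3 before culture at 9 days, had the highest total of the 18, at 51126114. The test for culture at 9 days alone was checked on simulated counts, drawn independently for each library. The simulation held no deviations shared by replicate number and no libraries that stand apart.

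Of 37686 loci 37390 matched the RefSeq TAIR10.1 annotation, and for 20641 coding genes with 1 transcript in both, 99.2% had the same length within 0.5 bases. The 10 genes and the other lists were chosen with earlier results of these data known. All 10 genes were named. Of the other clock genes, the called ones with the 4 largest changes per list were named, with PHYB, the one input gene that rose, added after its value was seen, and the 5 most correlated genes were named for CCA1, PRR9, TOC1 and GI. The alternatives were RLE factors, DESeq2 1.42.0, no filter, a replicate block, a batch term for replicate 3, libraries left out, and the compared groups alone. Same-numbered libraries deviated together, with every correlation above 0.1, for 9 days before against cultured (0.28, 0.23 and 0.41), 12 against 15 days before culture (0.34, 0.68 and 0.25) and 9 against 12 days cultured (0.34, 0.21 and 0.58). They did so too for 9 days before against 12 days cultured (0.23, 0.17 and 0.48) and 9 days cultured against 12 days before (0.12, 0.14 and 0.31), which were not compared, and not in the other 10 pairs of groups. The labels name no shared litter or day.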

Additional observations from a re-analysis of the deposited data

Results flagged for a closer look

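The change with culture differed between 15- and 9-day leaves for 2 of the 10 clock genes, by a test of the difference itself in edgeR's quasi-likelihood model, where 20.8% of all tested genes were called, so the share among the 10 is near that of all genes. LUX differed by -1.56 log2 units (adjusted p = 0.0212), from -0.08 at 9 days to -1.64 at 15 days, and its 15-day value before culture included 1 library at 163 CPM, without which the difference was -0.98 (adjusted p = 0.0323). PRR5 differed by -1.99 log2 units (adjusted p = 0.0416), from 0.78 at 9 days to -1.22 at 15 days. The part of the libraries that stood apart in these differences was not tested beyond the values given without them.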

How the results depend on the processing

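RLE factors and a batch term for replicate 3 changed no call among 112 gene results, and dropping the filter ended 1, that of PHYB at 15 days. The batch term is a shift common to all groups. It cannot take up a replicate 3 deviation that changes direction between ages, as that of CCA1 did. DESeq2 called 2 of the 10 genes for culture at 9 days, against 0, and 3 for the change with culture at 15 against 9 days, against 2, with PRR7 at -1.58 (adjusted p = 0.0376). Without the 2 libraries that stood apart the counts were 1 for culture at 15 days, 2 for the mean of ages, 3 for 15 against 9 days before culture and 1 for the change with culture at 15 against 9 days, and PRR7 turned to 0.11 at 12 days and 0.10 over the mean of ages and PRR9 to -0.26 at 15 days, all uncalled. With the compared groups alone 1 gene was called among cultured leaves at 15 against 9 days, LUX lost its call before culture at 15 against 9 days (1.12, adjusted p = 0.0760) and PRR7 was called for the change with culture (-1.56, adjusted p = 0.0462). The cause was not tested.

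Leaving out a library or a replicate number gave 0 to 1 called genes for culture at 9 days, 0 to 1 at 12 days, 1 to 3 at 15 days, 1 to 5 over the mean of ages, 0 to 2 for 15 against 12 days and 2 to 6 for 15 against 9 days before culture, and 0 to 3 for the change with culture at 15 against 9 days. No value that turned sign was called in that fit. Over all leave-outs, genes with such a value ranged for culture at 9 days from -0.64 to 0.43 for CCA1, -0.16 to 0.58 for LHY, -0.63 to 0.23 for PRR3 and -0.26 to 0.08 for LUX. At 12 days they ranged from -0.91 to 0.11 for PRR7, -1.53 to 0.35 for PRR5, -0.63 to 0.57 for PRR3 and -0.05 to 1.3 for GI, which was called at 1.3. At 15 days they ranged from -0.25 to 0.48 for PRR9, -0.07 to 0.19 for GI and -0.61 to 0.02 for ELF4, and over the mean of ages from -0.32 to 0.05 for PRR7, -0.65 to 0.01 for PRR5 and -0.03 to 0.52 for ELF4. Before culture, 15 against 9 days, they ranged from -0.13 to 1.84 for LHY, -1.3 to 0.03 for PRR3 and -0.20 to 0.90 for TOC1, which was called at 0.90, and for the change with culture from -0.81 to 0.12 for PRR3.

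With the replicate number as a block, the counts were 2 at 15 days, where PRR5 had an adjusted p of 0.0585, 3 over the mean of ages, where GI had 0.0548, and 3 for the change with culture at 15 against 9 days, where PRR7 was called at -1.53 (adjusted p = 0.0459). In the comparisons whose numbers pair the libraries, 0 of the 10 genes were called without the block, so there was no call to lose, and the block added none. The block is a shift per replicate number common to all groups. Like the batch term, it cannot take up a replicate 3 deviation that changes direction between ages. The count over all genes for culture at 9 days was 1999 and ran from 316 without replicate 1 to 3844 without the 2 libraries that stood apart. Most counts of the 10 genes under an alternative were not set against that alternative's own share of all genes. The median spread of the 10 genes, 0.58, stayed between 0.43 and 0.65 with a replicate left out. PRR9 at 9 days rests on the fewest counts, and the effect of depth was not tested.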
